A study of Saccharomyces cerevisiae with 6 samples.

Results

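The genes described here carry out sulfur amino acid metabolism in budding yeast: the uptake and reduction of sulfate, the synthesis of methionine, cysteine and S-adenosylmethionine (SAM), the import of these compounds, and the control of the pathway. They were taken by gene symbol from a list of 38, and all 38 were found on the array, among 6226 features tested in all. MET5 was found under its older symbol ECM17. Transcript levels were measured in 3 samples of a haploid flor strain of mating type alpha (P3_Kan, from P3-D5, carrying a KanMX drug-resistance cassette) and in 3 samples of a haploid wine strain of mating type a (K1_Kan, from K1-280-2B, for which the labels do not explain Kan). Flor yeasts form a floating film on wine after fermentation, and wine yeasts carry out the fermentation. Both strains were shaken at 28 °C in a synthetic wine-like medium and harvested at an optical density of 1 at 600 nm, where no film forms. Mating type and strain differ together, and each group is a single strain. The markers followed the labels: all 6 a-specific genes were lower and all 4 alpha-specific genes were higher in the flor strain.

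As background, yeast imports sulfate, activates it with ATP, reduces it to sulfite and then to sulfide, and joins the sulfide to a carbon chain made from aspartate to give homocysteine. Homocysteine is methylated to methionine, which is converted to SAM, the main methyl donor of the cell, or passes by transsulfuration to cysteine and glutathione. The activator Met4 works with the DNA-binding proteins Cbf1, Met28, Met31 and Met32, and the ubiquitin ligase subunit Met30 restrains it when sulfur amino acids are plentiful. In wine yeasts the pathway is known for its part in forming sulfide and sulfite.

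Most enzymes and importers of the pathway were lower in the flor strain, with the high-affinity methionine permease gene MUP1 changed most, while the low-affinity permease gene MUP3, the cystathionine beta-lyase gene STR3 and the regulator gene MET32 were higher. At an adjusted p under 0.05 in limma over all features, 22 of the 38 genes (57.9%) were lower, 5 (13.2%) were higher and 11 did not pass. Over the whole array 23.6% of features were lower and 20.5% higher, 44.1% in all. The median log2 change (flor minus wine) was −0.33 for the 38 genes and −0.02 for all features. The flor and wine values did not overlap in 30 of the 38 genes (78.9%), against 56.1% of all features. A log2 change of at least 1 was reached by MUP1, MET6 and HOM3, or 3 of the 38, where 6.41% of all features reached it past the threshold. In a culture, fewer expressing cells and less RNA per cell cannot be told apart.

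**Figure D1:**
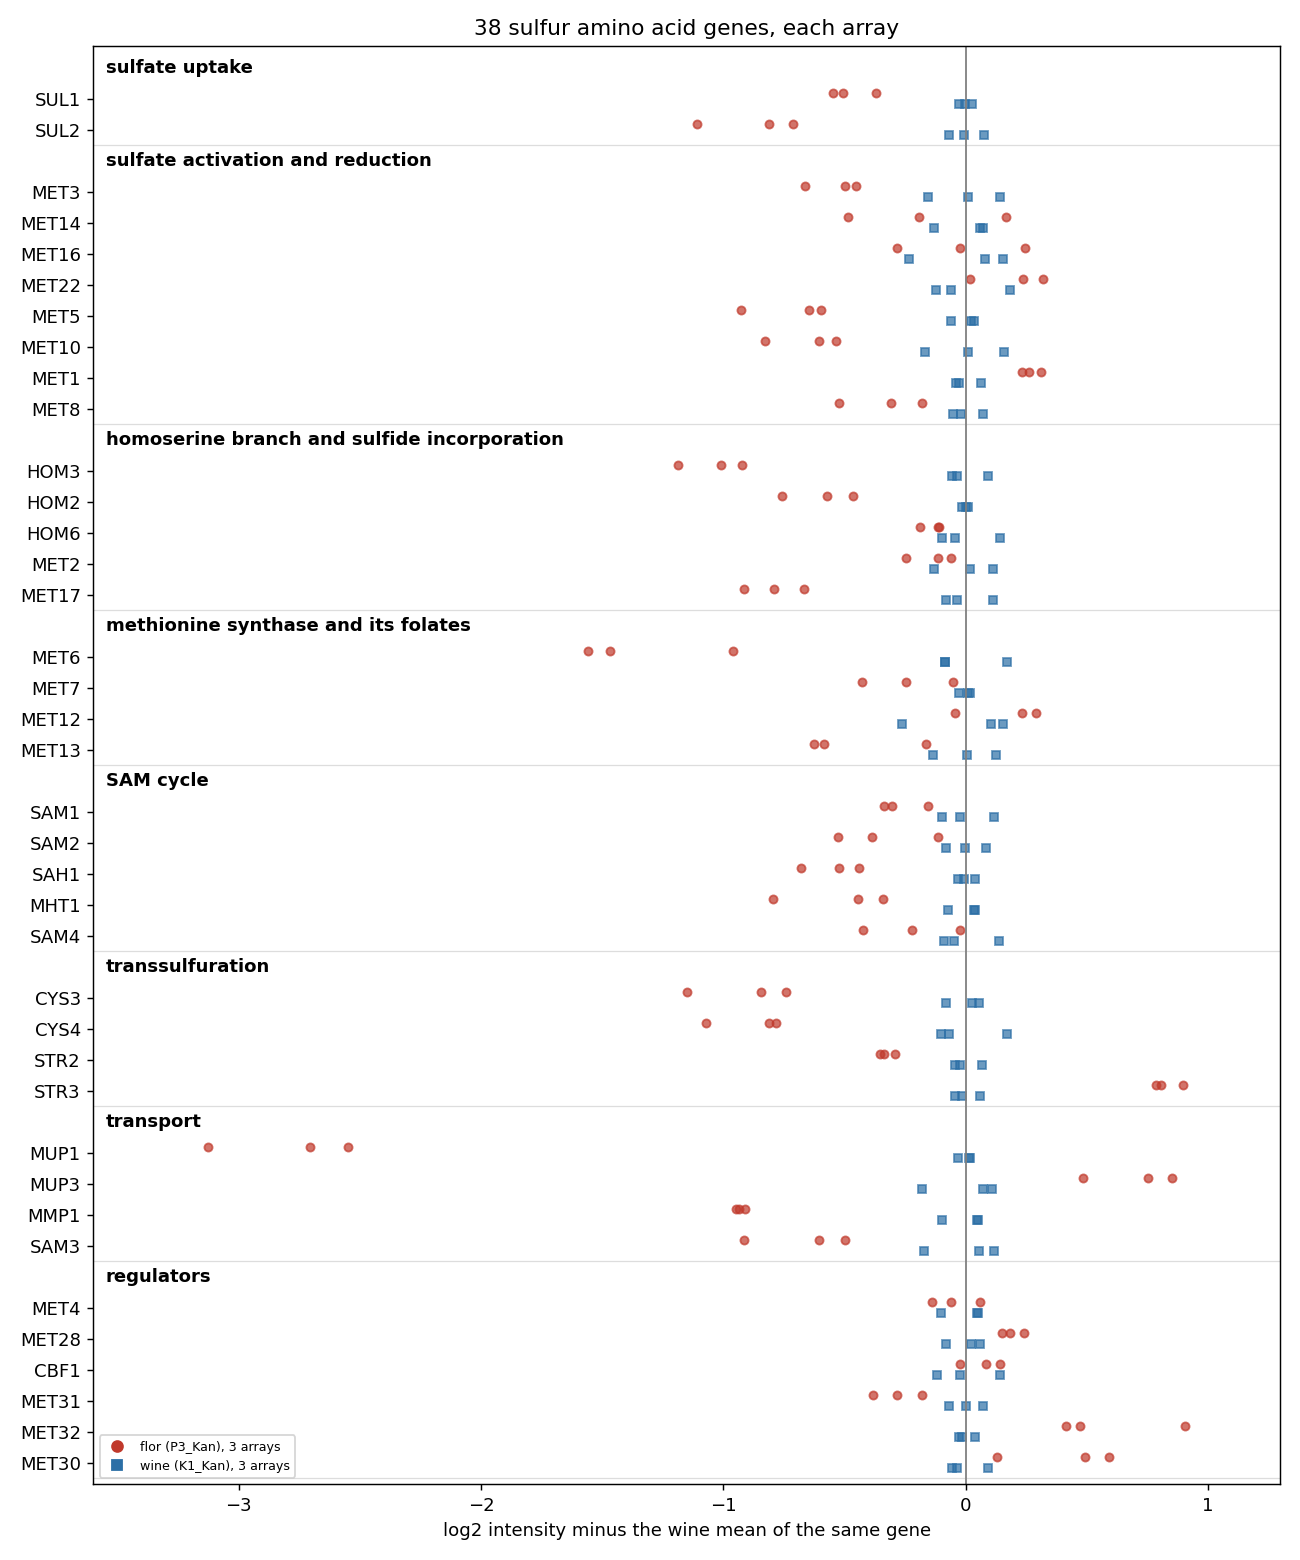
Log2 intensity on each of the 6 arrays minus the wine mean of the same gene (horizontal axis), for the 38 genes grouped by role; circles are flor arrays and squares wine arrays. MUP1 lies farthest to the left, with a mean log2 change of −2.79, and STR3, MUP3 and MET32 lie to the right.

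**Figure D2:**
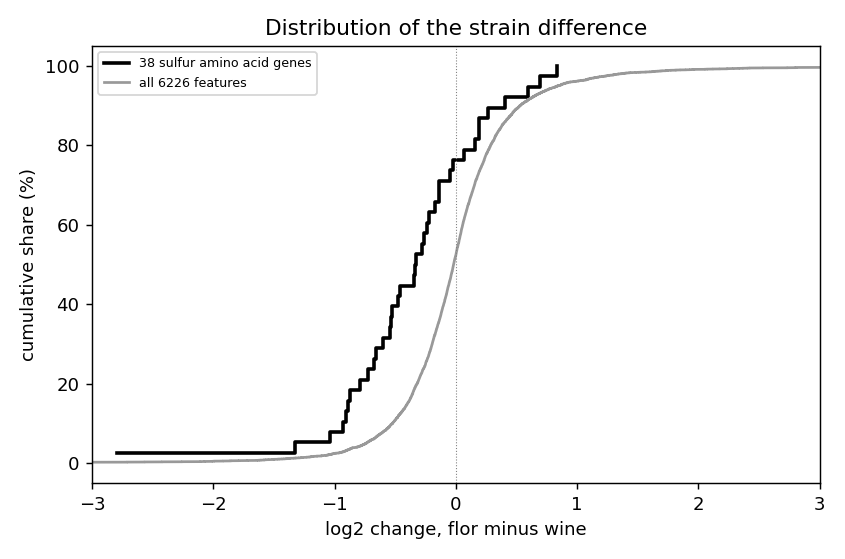
Cumulative share (percent) of genes at or below each log2 change, flor minus wine, for the 38 sulfur amino acid genes (black) and all 6226 features (grey), drawn from −3 to 3. The black line runs to the left of the grey one at its middle, with medians of −0.33 and −0.02.

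Values are log2 intensities normalized between arrays, 1 probe per gene, and a probe's level says nothing of its level relative to another gene's probe. Among the 38 genes the array values ran from 6.63 to 13.06, and 1 gene, CBF1, lay among the dimmest 25% of features (a mean below 7.16). Flor replicate 1 stood apart from the other flor arrays, with Pearson correlations across features of 0.9877 and 0.9903 with replicates 2 and 3, which correlated at 0.9971 with each other. It gave the lowest flor value in 24 of the 38 genes, against 42.1% of all features, and the median SD of the 38 genes was 0.16 in flor samples and 0.08 in wine samples. Without it 25 genes were lower and 6 higher, including all 27 that passed with every array. Calls rose over the whole array too. Of all 6226 features 1777 (28.5%) were then lower and 1502 higher, against 1470 (23.6%) and 1276 with every array. The labels place flor replicate 3 and wine replicate 2 on array number 1, taken here as a slide, and the other 4 on array number 2. In each of the 27 genes that passed, the flor and wine values did not overlap. Their direction was thus bound to be the same on both slides. With slide as a block the counts were again 22 lower and 5 higher. Longer genes tended to be lower in the flor strain (Spearman rho of −0.23 between log2 change and log2 length across 4052 named genes, a description only). The median gene length was 1560 bp for the 22 lower genes, 1641 bp for the 5 higher and 1074 bp for the 11 that did not pass, and the counts were the same once the length trend was removed.

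Both sulfate permease genes were lower in the flor strain. SUL2 was at 8.06, 8.36 and 8.46 on flor replicates 1 to 3, against 9.10, 9.24 and 9.17 on wine replicates 1 to 3. Every flor value was thus below every wine value, and the level was 1.84-fold lower (95% interval 1.54 to 2.18, adjusted p = 0.00028). SUL1, which encodes the other high-affinity permease, was at 8.51, 8.54 and 8.68 in the flor strain, against 9.08, 9.03 and 9.05 in the wine strain. Its fall was smaller, 1.39-fold (1.23 to 1.57, adjusted p = 0.0014), with tightly grouped wine values.

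Of the 8 genes that activate and reduce sulfate, 4 were lower, 1 was higher and 3 did not pass (median log2 change −0.25). The sulfite reductase subunit genes were lower together. MET5, for the beta subunit, was at 10.60, 10.88 and 10.93 in the flor strain, against 11.56, 11.55 and 11.47 in the wine strain. MET10, for the alpha subunit, was at 11.01, 11.23 and 11.30 in the flor strain, against 11.66, 11.99 and 11.84 in the wine strain. Neither gene's groups overlapped, and the falls were 1.65-fold (1.41 to 1.93, adjusted p = 0.00051) and 1.58-fold (1.32 to 1.88, adjusted p = 0.0016). The ATP sulfurylase gene MET3, which begins activation, was at 9.77, 9.61 and 9.82 in the flor strain, against 10.28, 10.41 and 10.11 in the wine strain, a log2 change of −0.54 (SE 0.10, adjusted p = 0.0026).

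MET14, MET16 and MET22 differed from MET3 in their calls, although the difference between the genes was not tested. MET14, the adenylylsulfate kinase gene, was at 10.60 ± 0.33 in flor samples and 10.77 ± 0.11 in wine samples (SD, n = 3 per strain, as for each ± below). Its flor values of 10.94, 10.28 and 10.58 straddled the wine values, and its log2 change was −0.17 (95% interval −0.52 to 0.17, adjusted p = 0.40). Among the alternatives it passed only without flor replicate 1, with a log2 change of −0.34 (adjusted p = 0.013). Without flor replicate 2 the log2 change was −0.01 (adjusted p = 0.94). The groups also overlapped for MET16, the gene of the reductase that makes sulfite, at 8.66 ± 0.26 in flor samples and 8.68 ± 0.21 in wine samples (adjusted p = 0.93). MET22 encodes the phosphatase that clears the by-product of this step and was at 8.03 ± 0.16 in flor samples and 7.84 ± 0.16 in wine samples (adjusted p = 0.20).

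MET1 and MET8 both serve the synthesis of siroheme, the cofactor of sulfite reductase, and their changes had opposite signs. MET1 was at 10.19, 10.22 and 10.27 in the flor strain, against 9.92, 9.93 and 10.03 in the wine strain, a log2 change of 0.27 (adjusted p = 0.018). MET8 was at 7.40, 7.74 and 7.62 in the flor strain, against 7.91, 8.00 and 7.87 in the wine strain, a log2 change of −0.34 (adjusted p = 0.024). Both calls were marginal. MET1 lost its call when flor replicate 3, wine replicate 1 or wine replicate 2 was left out (adjusted p = 0.064, 0.076 and 0.066) and on slide 2 alone (0.18). MET8 lost its call when flor replicate 3 or any wine array was left out (0.053 for the flor array, and 0.065, 0.092 and 0.055 for wine replicates 1 to 3), and on slide 2 alone (0.17).

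The 5 genes that build the carbon acceptor and add sulfide to it all had negative log2 changes, and 3 passed (median −0.60). HOM3 encodes aspartate kinase, the entry to the branch shared with threonine. It was at 10.31, 10.49 and 10.57 in the flor strain, against 11.59, 11.46 and 11.44 in the wine strain. The groups were separated by 0.87 log2 units, and the fall was 2.06-fold (1.78 to 2.38, adjusted p = 3.8e-05). HOM2, for the following dehydrogenase, was at 11.38, 11.67 and 11.56 in the flor strain, against 12.15, 12.12 and 12.14 in the wine strain, 1.51-fold lower (1.31 to 1.75, adjusted p = 0.00085). HOM6, for homoserine dehydrogenase, differed less, at 12.16 ± 0.04 in flor samples and 12.29 ± 0.12 in wine samples, and did not pass (adjusted p = 0.24). MET2, whose product acetylates homoserine, was at 9.15 ± 0.10 in flor samples and 9.29 ± 0.12 in wine samples (adjusted p = 0.26). The sulfhydrylase gene MET17, whose product fixes sulfide, was at 12.15, 12.03 and 12.28 in the flor strain, against 13.06, 12.91 and 12.86 in the wine strain, 1.73-fold lower (1.49 to 2.00, adjusted p = 0.0002) with no overlap.

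MET6, the cobalamin-independent methionine synthase gene, had the second-largest change of the 38. Its values were 9.84, 9.75 and 10.35 in the flor strain, against 11.23, 11.22 and 11.48 in the wine strain. Flor replicate 3 was the highest flor array yet lay well below the lowest wine array, and the fall was 2.51-fold (1.97 to 3.20, adjusted p = 0.00018). On slide 1, which holds flor replicate 3, the log2 change was −0.88, and on slide 2 it was −1.55. MET13 and MET12 encode methylenetetrahydrofolate reductases, which supply the methyl group, with Met13 the main form. MET13 was at 8.51, 8.55 and 8.97 in the flor strain, against 9.00, 9.14 and 9.26 in the wine strain, a log2 change of −0.46 (adjusted p = 0.021) with flor replicate 3 just below the wine range. The call was lost without flor replicate 2, wine replicate 2 or wine replicate 3 (adjusted p = 0.057, 0.069 and 0.085). MET12 was at 9.73 ± 0.18 in flor samples and 9.57 ± 0.23 in wine samples (adjusted p = 0.37). MET7, for the enzyme that adds glutamates to folate, was at 8.30 ± 0.19 in flor samples and 8.54 ± 0.03 in wine samples (adjusted p = 0.084). Among the alternatives it passed only without flor replicate 1 (log2 change −0.34, adjusted p = 0.0037). With the length trend removed its log2 change was −0.14 (adjusted p = 0.33).

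Around SAM itself 4 of 5 genes were lower, by modest amounts (median log2 change −0.34). SAH1 encodes S-adenosylhomocysteine hydrolase, which recycles the product of methylation. It was at 11.15, 11.39 and 11.30 in the flor strain, against 11.80, 11.82 and 11.86 in the wine strain, 1.46-fold lower (1.28 to 1.67, adjusted p = 0.001) with no overlap. The SAM synthetase genes SAM1 and SAM2 are close in sequence, and their probes may not separate them. SAM1 averaged 9.46 ± 0.10 in flor samples and 9.73 ± 0.11 in wine samples, a log2 change of −0.26 (adjusted p = 0.040). SAM2 averaged 10.64 ± 0.21 in flor samples and 10.98 ± 0.08 in wine samples, a log2 change of −0.34 (adjusted p = 0.035). Both stood close to the threshold. SAM1 was not called when flor replicate 2 (adjusted p = 0.091) or any of wine replicates 1 to 3 (0.095, 0.15 and 0.054) was left out, with the intensity trend and robust eBayes (0.059), with the dimmest 50% of features left out (0.053) or on slide 2 alone (0.14). SAM2 was not called when flor replicate 2 (0.079) or any of wine replicates 1 to 3 (0.12, 0.063 and 0.095) was left out, and its log2 change was −0.03 on slide 1 and −0.50 on slide 2.

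MHT1 and SAM4 encode homocysteine methyltransferases that use S-methylmethionine and SAM as methyl donors. MHT1 was at 7.96, 8.31 and 8.42 in the flor strain, against 8.79, 8.80 and 8.68 in the wine strain, a log2 change of −0.53 (adjusted p = 0.007) with no overlap. SAM4 was at 8.98 ± 0.20 in flor samples and 9.20 ± 0.12 in wine samples (adjusted p = 0.15). Among the alternatives it passed only without flor replicate 1 (log2 change −0.32, adjusted p = 0.012). Each gene lies next to the permease gene for its methyl donor in the R64 reference gene order, MHT1 beside MMP1 and SAM4 beside SAM3.

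All 4 transsulfuration genes passed, and the direction differed between them. CYS4 and CYS3 carry homocysteine to cysteine through cystathionine beta-synthase and cystathionine gamma-lyase. CYS4 was at 11.10, 11.39 and 11.36 in the flor strain, against 12.10, 12.34 and 12.07 in the wine strain, 1.85-fold lower (1.56 to 2.20, adjusted p = 0.00026). CYS3 was at 10.28, 10.69 and 10.59 in the flor strain, against 11.46, 11.49 and 11.35 in the wine strain, 1.88-fold lower (1.58 to 2.24, adjusted p = 0.00025). Neither gene's groups overlapped, with flor replicate 1 lowest in each. In the opposite route from cysteine to homocysteine, STR2, the cystathionine gamma-synthase gene, was at 8.60 ± 0.03 in flor samples and 8.93 ± 0.06 in wine samples, a log2 change of −0.33 (adjusted p = 0.0072; 0.062 on slide 2 alone). STR3, whose cystathionine beta-lyase acts next in that route, was at 8.62, 8.53 and 8.51 in the flor strain, against 7.68, 7.71 and 7.78 in the wine strain. This was the largest increase of the 38, 1.78-fold (1.58 to 2.00, adjusted p = 4.5e-05), with log2 changes of 0.80 on slide 1 and 0.85 on slide 2.

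The 4 importers all passed too, and the methionine permeases changed in opposite directions. MUP1 was at 8.80, 8.96 and 8.38 in the flor strain, against 11.52, 11.47 and 11.52 in the wine strain. The highest flor value lay 2.52 log2 units below the lowest wine value. The fall was 6.93-fold (5.59 to 8.59, adjusted p = 8.3e-07), with log2 changes of −3.09 on slide 1 and −2.64 on slide 2. MUP3 was at 9.54, 9.91 and 9.81 in the flor strain, against 8.88, 9.16 and 9.13 in the wine strain, 1.62-fold higher (1.34 to 1.96, adjusted p = 0.0016) with no overlap. MMP1, the S-methylmethionine permease gene, was at 8.05, 8.06 and 8.09 in the flor strain, against 8.90, 9.04 and 9.05 in the wine strain. Its flor arrays were almost identical, and the fall was 1.91-fold (1.69 to 2.15, adjusted p = 2.4e-05). SAM3, the SAM permease gene, was at 10.05, 10.47 and 10.36 in the flor strain, against 10.80, 11.09 and 11.02 in the wine strain, 1.60-fold lower (1.31 to 1.94, adjusted p = 0.0025).

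**Figure D3:**
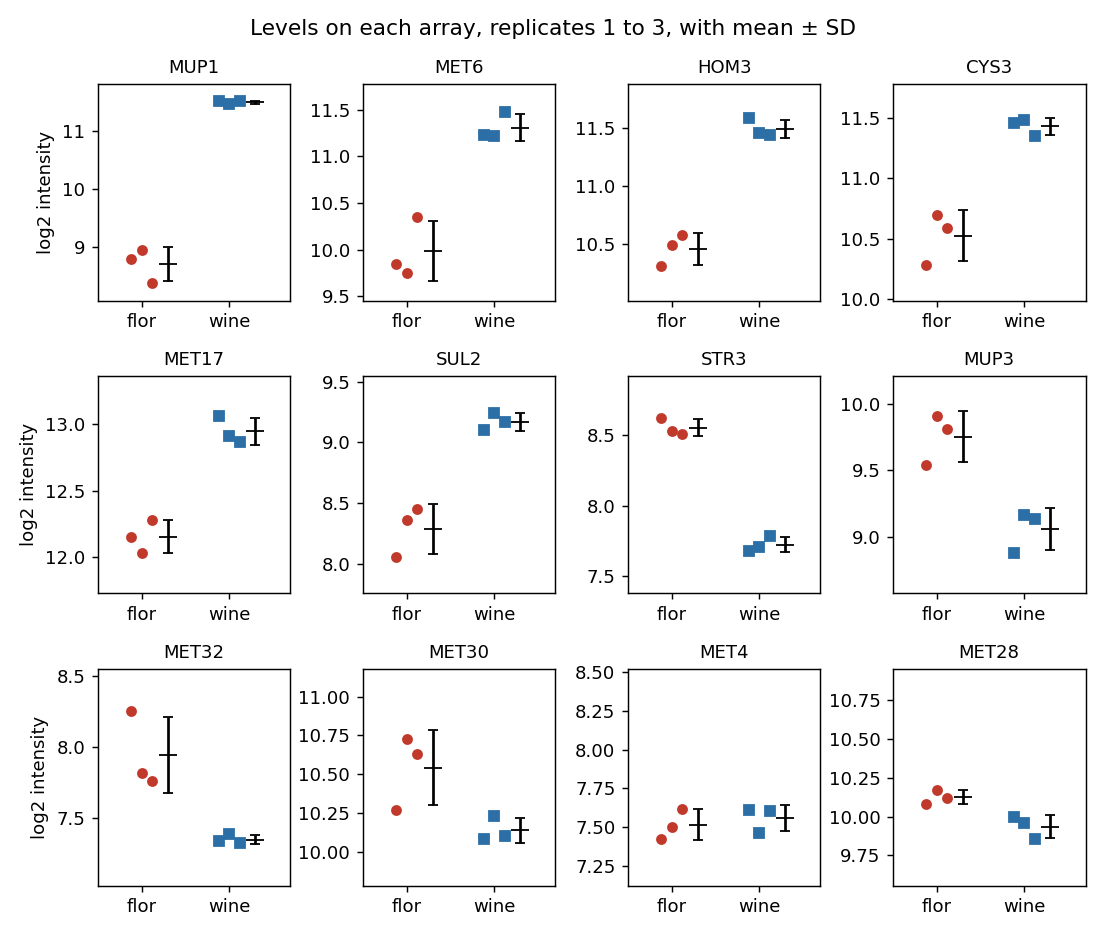
Log2 intensity (vertical axes, whose ranges differ between genes) of 12 genes on flor arrays (circles) and wine arrays (squares), replicates 1 to 3 from left to right, with the mean and SD of each strain (black, n = 3). MUP1, MET6, HOM3, CYS3, MET17 and SUL2 are lower and STR3, MUP3, MET32 and MET30 higher in the flor strain, and MET4 and MET28 did not pass.

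Among the 6 regulators 2 were higher, 1 was lower and 3 did not pass (median log2 change 0.13). Over all features 20.5% were higher and 23.6% lower, and with 6 genes the counts are a description only. The transcript of the activator MET4 was at 7.42, 7.50 and 7.62 in the flor strain, against 7.61, 7.46 and 7.61 in the wine strain. The groups overlapped fully, and the 95% interval of its log2 change, −0.24 to 0.15, leaves room for a small difference (adjusted p = 0.71). CBF1 was at 6.82 ± 0.09 in flor samples and 6.75 ± 0.13 in wine samples (adjusted p = 0.59). MET28 was at 10.08, 10.17 and 10.12 in the flor strain, against 9.99, 9.96 and 9.85 in the wine strain, narrowly above without passing (log2 change 0.19, adjusted p = 0.075). Among the alternatives it passed only without flor replicate 1 (log2 change 0.21, adjusted p = 0.035).

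MET32 and MET31 encode related zinc-finger proteins that bring Met4 to DNA. MET32 was at 8.25, 7.82 and 7.76 in the flor strain, against 7.33, 7.39 and 7.32 in the wine strain, 1.51-fold higher (1.24 to 1.85, adjusted p = 0.005). Flor replicate 1 was the highest array, and without it the log2 change was 0.44 and still passed (adjusted p = 0.0003). MET31 was at 7.67, 7.57 and 7.47 in the flor strain, against 7.92, 7.85 and 7.78 in the wine strain, a log2 change of −0.28 (adjusted p = 0.025). Its call was lost when flor replicate 2 or 3 (adjusted p = 0.051 and 0.092) or wine replicate 1 or 2 (0.10 and 0.074) was left out, and on slide 2 alone (0.21). MET30, the gene of the ligase subunit that restrains Met4, was at 10.27, 10.73 and 10.63 in the flor strain, against 10.08, 10.23 and 10.10 in the wine strain, a log2 change of 0.40 (adjusted p = 0.025). Flor replicate 1 was close to the highest wine array. The call of MET30 was lost when flor replicate 2 or 3 (0.072 and 0.084) or wine replicate 1, 2 or 3 (0.087, 0.050 and 0.084) was left out, and on slide 2 alone (0.14), whereas without flor replicate 1 its log2 change was 0.54 (adjusted p = 0.00013).

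Related genes were also compared within each array, as the difference between their log2 intensities, which moves between strains where the genes changed unequally. In 7 pairs so compared, the flor and wine differences did not overlap in 4. Single features did not overlap in 56.1% of cases over the whole array, and no such share was computed for pairs, so the count of 4 is a description only. MUP1 minus MUP3 was −0.74, −0.95 and −1.43 on the flor arrays, against 2.65, 2.31 and 2.39 on the wine arrays, a change of −3.49. MET31 minus MET32 was −0.58, −0.25 and −0.30 in the flor strain, against 0.59, 0.46 and 0.46 in the wine strain, a change of −0.88. MET13 minus MET12 changed by −0.62 and SUL2 minus SUL1 by −0.40, also without overlap. An exact two-sided permutation test of 3 arrays against 3 gave p = 0.1 for each of these 4 pairs, the smallest it can give (0.18 after Benjamini-Hochberg adjustment over the 7). SAM2 minus SAM1 averaged 1.18 in flor samples and 1.25 in wine samples, with overlap (exact p = 0.6), and MMP1 minus SAM3 and MHT1 minus SAM4 overlapped as well (exact p = 0.2 each).

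**Figure D4:**
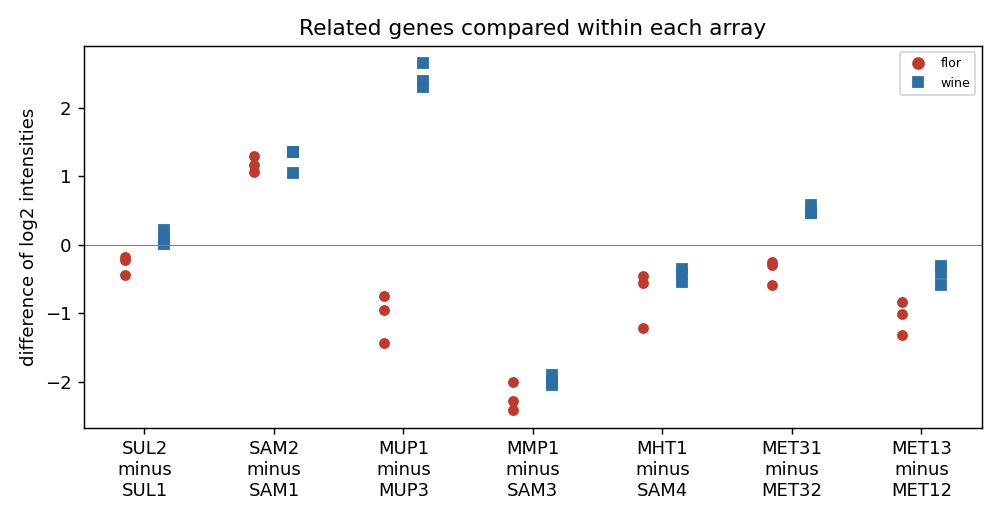
Difference between the log2 intensities of related genes within each array (vertical axis) for 7 pairs, flor arrays as circles left of wine arrays as squares. Flor and wine values do not overlap for MUP1 minus MUP3, MET31 minus MET32, MET13 minus MET12 and SUL2 minus SUL1; the height of a pair depends on its probes and has no meaning of its own.

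Genes bordering the pathway were read from the same fit, in 10 further lists of 73 genes. Of these 62 were measured, of which 28 (45.2%) were lower and 16 (25.8%) higher (median log2 change −0.19). Lists with unmeasured genes were glutathione and cysteine use (6 of 11 measured) and sulfite efflux and other sulfur sources (3 of 5). The others were methionine salvage and polyamines (9 of 12) and methionine charging and repair (5 of 6). Over all features 23.6% were lower and 20.5% higher, so the share that was higher is near that of the whole array, and the counts of each list below are given against these shares. In the list of the threonine branch, which shares the HOM genes, all 3 genes were lower. The log2 change was −0.74 for THR1 and −0.70 for THR4, whose products make threonine. ILV1, whose product consumes threonine, was lower by −0.39 (adjusted p = 0.014, but 0.059 without wine replicate 2 and 0.12 on slide 2 alone). Of 6 genes of glutathione and cysteine use, 4 were lower and none higher. The glutathione reductase gene GLR1 was at 9.81, 10.04 and 10.11 in the flor strain, against 11.02, 11.12 and 10.98 in the wine strain, 2.08-fold lower (adjusted p = 4.5e-05). The glutathione importer gene OPT1 (−0.60) and the synthesis genes GSH1 (−0.52) and GSH2 (−0.44) were lower too. ECM38, for the enzyme that begins glutathione breakdown, did not pass at 0.13 (adjusted p = 0.59), but did without flor replicate 1 (adjusted p = 0.0015).

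The one-carbon list was split, with 5 of 12 genes higher and 3 lower (median log2 change 0.12). The 3 glycine decarboxylase subunit genes in this list, whose complex passes a carbon from glycine to folate, were all higher. GCV1 was at 10.69, 10.69 and 10.88 in the flor strain, against 8.84, 8.81 and 9.05 in the wine strain, 3.61-fold higher (adjusted p = 1.3e-06). GCV3 (1.16) and the cytosolic folate dehydrogenase gene MTD1 (1.51) followed with GCV2 (1.07). The cytosolic serine hydroxymethyltransferase gene SHM2 was higher as well (0.93). The 3 lower genes were ADE3 (−0.60, adjusted p = 0.013) and MIS1 (−0.41, adjusted p = 0.0038), for the cytosolic and mitochondrial forms of a multifunctional folate enzyme, and the folate synthesis gene FOL1 (−0.51, adjusted p = 0.00094). ADE3 was not called without wine replicate 3 (adjusted p = 0.055) or on slide 2 alone (0.056). The mitochondrial hydroxymethyltransferase gene SHM1 did not pass (−0.17, adjusted p = 0.22). The serine synthesis list had SER1 higher (0.28, adjusted p = 0.029) and SER2, SER3 and SER33 not passing. SER1 was not called when flor replicate 3 (adjusted p = 0.10) or any of wine replicates 1 to 3 (0.095, 0.070 and 0.089) was left out, nor with the intensity trend and robust eBayes (0.059).

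Of 8 broad amino acid permeases known to carry methionine or cysteine, 6 were lower and GAP1, the general permease, was higher (log2 change 2.25). BAP3 (−4.03), BAP2 (−3.38) and TAT1 (−2.11) fell most. BAP2 was at 8.12, 8.55 and 8.18 in the flor strain, against 11.63, 11.73 and 11.64 in the wine strain. Among genes of other sulfur sources, SSU1, the sulfite efflux pump gene, was at 13.55, 13.64 and 13.64 in the flor strain, against 13.39, 13.28 and 13.29 in the wine strain. That was 1.22-fold higher without overlap (adjusted p = 0.015), though not called without flor replicate 3, wine replicate 2 or wine replicate 3 (adjusted p = 0.051, 0.059 and 0.062) or on slide 2 alone (0.16). The gene of its activator, FZF1, did not pass (−0.01, adjusted p = 0.97). SEO1, a permease gene whose product has been linked to sulfur compounds, was higher by a log2 change of 5.15. Its wine values of 5.40, 5.46 and 5.36 were at the bottom of the measured range, so that the change may be understated. Whether its probe matches a sequence in the wine strain was not tested.

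**Figure D5:**
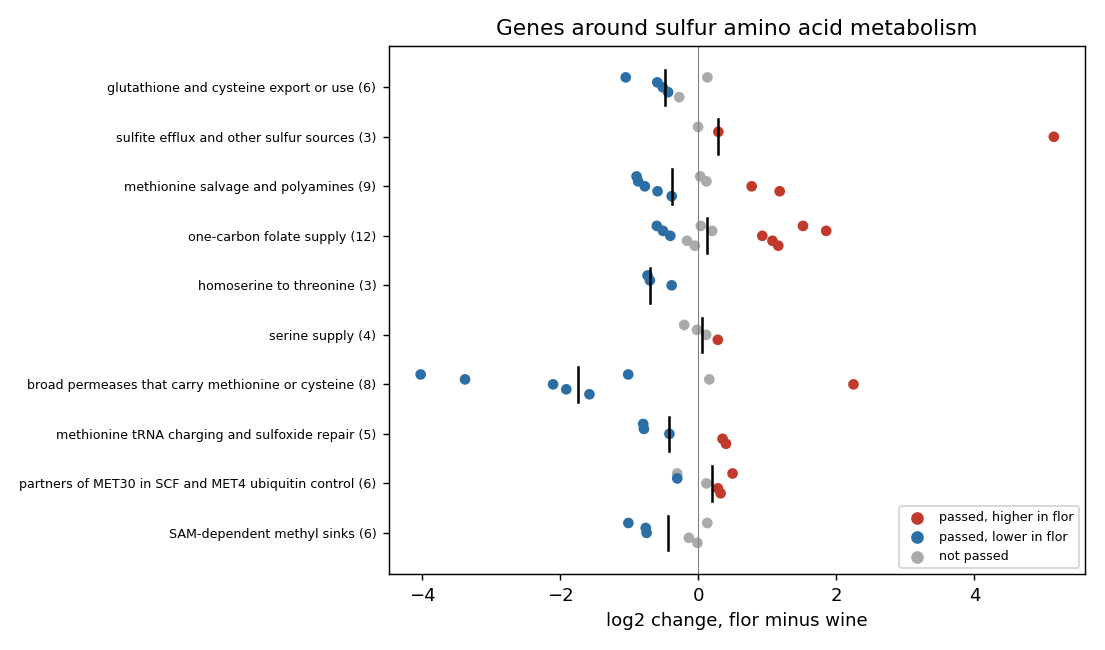
Log2 change, flor minus wine, of 62 genes in 10 lists bordering the pathway (rows, number measured in brackets); red passed and higher, blue passed and lower, grey not passed, black bars the median of each list. The broad permeases have the lowest median (−1.75), and SEO1 lies alone at 5.15.

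Of 9 genes of methionine salvage and polyamine synthesis, 5 were lower and 2 higher. The spermidine synthase gene SPE3 was higher (1.18) while SPE2, whose product decarboxylates SAM for it, was lower (−0.78), and the transaminase genes ARO9 (−0.90) and ARO8 (−0.87) were lower. In the list of enzymes that consume SAM, the sterol methyltransferase gene ERG6 (−1.02) and the phospholipid methyltransferase genes CHO2 (−0.76) and OPI3 (−0.75) were lower, and the histone methyltransferase genes SET1, SET2 and DOT1 did not pass. Of 5 genes of methionine charging, removal and repair, the methionyl-tRNA synthetase genes MSM1 (−0.80) and MES1 (−0.79) and the aminopeptidase gene MAP2 (−0.42) were lower, and MXR1 (0.40) and MAP1 (0.35) were higher. MXR1 was not called without flor replicate 3, wine replicate 1 or wine replicate 3 (adjusted p = 0.069, 0.089 and 0.093), MAP1 without wine replicate 1 (0.056), and MAP2 without wine replicate 1 or 3 (0.053 and 0.063). Among 6 genes that act with MET30, CDC34, the ubiquitin-conjugating enzyme gene, was higher by 0.49 (adjusted p = 0.0077). RUB1 (0.32) and HRT1 (0.28) were higher and CDC53 (−0.31) lower, but none of these 3 passed once the length trend was removed (adjusted p = 0.22, 0.38 and 0.091). CDC53 was also lost without wine replicate 2 or 3 (0.071 and 0.066), RUB1 when flor replicate 2 (0.061) or wine replicate 1, 2 or 3 (0.074, 0.071 and 0.11) was omitted, and HRT1 when flor replicate 1 or 3 (0.053 and 0.087) or wine replicate 2 or 3 (0.15 and 0.14) was.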

How the data were processed

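Total RNA of 6 samples was measured on Agilent arrays in 1 colour (Cy3), per the labels' protocols. The authors deposited 1 normalized log2 intensity per probe and array. The scale was read from the values (5.29 to 15.88), and array medians of 8.33 to 8.35 show normalization between arrays before deposit, by a method not given in the sources used here; R 2.14.2 and limma are named, per the submitters' processing notes. Such normalization makes every change relative to the other genes.

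Of 6227 probes, 4061 had 1 symbol in the platform annotation, 0 several and 2166 none; 125 symbols were updated through the R64 gene table, and 2 probes of FDH2 were averaged, which left 6226 features. Strain means were fitted to all 6 arrays with limma 3.58.1 (R 4.3.3), two-sided, with Benjamini-Hochberg adjustment over all features and no intensity filter. Every adjusted p is from this fit or its stated alternative. The number of arrays, 3 per strain, limits the precision. The p-values set the strain difference against the spread between arrays of the same strain, not the spread among flor or wine strains. The labels number them as biological replicates 1 to 3 but also mark replicate 2 of each strain as technical replicate 2; no partner array was analysed here, and part of the spread may be technical. All 38 members are named, and up to 4 passing genes of each bordering list with the largest changes; further bordering genes were named after their values were seen, as were the pairs of related genes. The members and lists were chosen with earlier results of these data known. Alternatives were quantile normalization, 75th percentile centring, removal of the dimmest 25% or 50%, trended robust eBayes, slide as a block or alone, the replicate number as a block, each array left out, and removal of a loess length trend (span 0.5).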

Additional observations from a re-analysis of the deposited data

How the results depend on the processing

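Of the 27 sulfur amino acid genes that passed, 19 kept their call in every alternative in which they were tested, and MET1, MET8, MET13, SAM1, SAM2, STR2, MET31 and MET30 lost it in at least 1. None reversed. The counts were again 5 higher and 22 lower with quantile normalization, 75th percentile centring, slide as a block or the length trend removed. MET14, MET7, SAM4 and MET28 passed without flor replicate 1 and in no other alternative. With single arrays left out, 3 to 6 of the 38 were higher and 17 to 25 lower; the number higher was 3 without flor replicate 3, wine replicate 1 or wine replicate 2. With the dimmest 50% of features left out, 31 of the 38 genes remained, of which 3 were higher and 19 lower, with a median of −0.48. That setting tests 3113 features, of which 705 were higher and 838 lower. On slide 2 alone, with 2 arrays per strain, 3 of the 38 were higher and 18 lower, and 701 and 723 of all features; slide 1 has 1 array per strain and gave values with no test. Leaving out single arrays gave 966 to 1502 features higher and 1074 to 1777 lower. In the bordering lists together, 11 to 18 genes were higher and 24 to 29 lower with single arrays left out.

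The replicate numbers matched the best-correlated arrays for flor replicates 1 and 2 but not for flor replicate 3. Same-numbered arrays had correlations of deviations from the strain means of 0.37, 0.23 and 0.05. Flor replicate 1 gave −0.27 and −0.09 with wine replicates 2 and 3. Flor replicate 2 gave −0.33 and 0.09 with wine replicates 1 and 3. Flor replicate 3 correlated best with wine replicate 2, on its own slide (0.19). Whether the arrays are paired was not tested. With the replicate number as a block, 5 of the 38 genes were higher and 22 lower, as without it. Of all features 1393 were then higher and 1580 lower, against 1276 and 1470 without the block.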
